A study of Mus musculus with 4 samples.

Results

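Collagen genes were examined in RNA-seq libraries made from whole mouse pancreas at E18.5, as the genes whose symbol has the form of a collagen chain, Col followed by a type number, the letter a and a chain number. The rule found 44 of the 24391 genes in the table. They comprised 9 fibrillar genes (types I, II, III, V and XI), 8 basement membrane genes (types IV, XV and XVIII) and 27 other collagens. Counts were available for 2 control and 2 *Rest* pKO libraries, each from embryonic pancreas at E18.5 and from a strain mixed with C57BL/6. In *Rest* pKO embryos both *Rest* alleles carry loxP sites around a part of the gene that *Pdx1Cre* removes, and the labels give the controls as *Pdx1Cre* with wild-type *Rest*, so by the labels both groups share the Cre transgene. A heading in the study's supplement names the controls Rest LSL instead, and which is right is not known. REST is a DNA-binding repressor, and *Pdx1Cre* acts in the epithelium of the pancreas and spares the mesenchyme.

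Collagens are built from 3 chains wound around each other, and each chain is the product of its own gene. Fibrillar collagens form the cross-banded fibers of connective tissue and are made mainly by mesenchymal cells such as fibroblasts. Type IV collagen forms the sheet-like network of basement membranes, to which types XV and XVIII bind, and it is made by epithelial, endothelial and mesenchymal cells. The other collagens include the beaded filaments of type VI, molecules that sit on the surface of fibrils, the anchoring fibrils of type VII and membrane-spanning chains. In the embryonic pancreas, mesenchyme and basement membranes surround the branching epithelium.

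The libraries held 16936759 and 18644088 counts in controls 1 and 2 and 20738162 and 24134100 counts in *Rest* pKO 1 and 2. *Xist* and Y-linked counts marked control 1 and *Rest* pKO 2 as female and the others as male, so each genotype had 1 library of each sex. *Rest* itself stood at 14.2 and 15.7 CPM in the controls and 12.1 and 9.16 CPM in *Rest* pKO, where CPM are counts relative to a library size scaled by TMM. Its log2 fold change of −0.49 ± 0.23 (SE, the standard error) missed the threshold, with an adjusted p of 0.593 in the quasi-likelihood test of edgeR. These counts cover the whole gene and every cell type of the organ, and so are no direct measure of the deletion. The 2 *Rest* pKO libraries differed more from each other than the 2 controls did, with a chi-square per degree of freedom of 64.9 against 23.2. The study's methods give 3 pancreas per genotype, and neither they nor the labels say whether a library is 1 pancreas or a pool, so p-values measure only the spread between these libraries, which may be partly technical.

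Collagen transcripts lay lower in *Rest* pKO on balance, fibrillar collagens furthest, but no single collagen gene passed the test. Of the 44 genes, 41 passed the filter on low counts and were tested, and *Col10a1*, *Col19a1* and *Col24a1* did not. The fitted log2 fold change, *Rest* pKO over control, was below 0 for 29 of the 41 genes and above 0 for 12, where 50.5% of all genes tested were below 0. Its median was −0.25 over the collagens and −0.0048 over all genes tested. Collagen transcripts are long, and with a trend of fold change with exon length removed these medians were −0.08 and 0.04. Between 5000 and 8000 bp of exon length, the median was −0.15 over 16 collagens and −0.10 over all 2826 genes tested. By class, 8 of 9 fibrillar genes, 7 of 8 basement membrane genes and 14 of 24 other collagens were below 0, with medians of −0.46, −0.15 and −0.17, or −0.23, 0.04 and −0.03 with the length trend removed, where the basement membrane median changed sign. In RNA of the whole organ, fewer cells of a type and less RNA per cell cannot be told apart.

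With the adjusted p held to 0.05, edgeR called 0 collagens, beside 4 genes of all tested that were called lower (0.0275%) and 0 called higher. DESeq2 called 0 collagens as well, beside 76 genes lower (0.533%) and 26 higher (0.182%). Taking p-values under 0.05 before adjustment, 9 collagens lay lower, against 5.61% of all genes tested, and 2 lay higher, against 3.26%. The 9 were *Col1a1*, *Col5a1*, *Col4a5*, *Col4a6*, *Col6a3*, *Col6a5*, *Col7a1*, *Col12a1* and *Col14a1*, and the 2 were *Col9a1* and *Col28a1*. Both *Rest* pKO values were under both control values for 18 collagens, against a share of 21.2% of all genes, and above both for 5, against 21.5%. The remaining 18 overlapped. With 2 libraries against 2, an exact permutation test of a single value cannot give a two-sided p below 0.333.

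**Figure D1:**
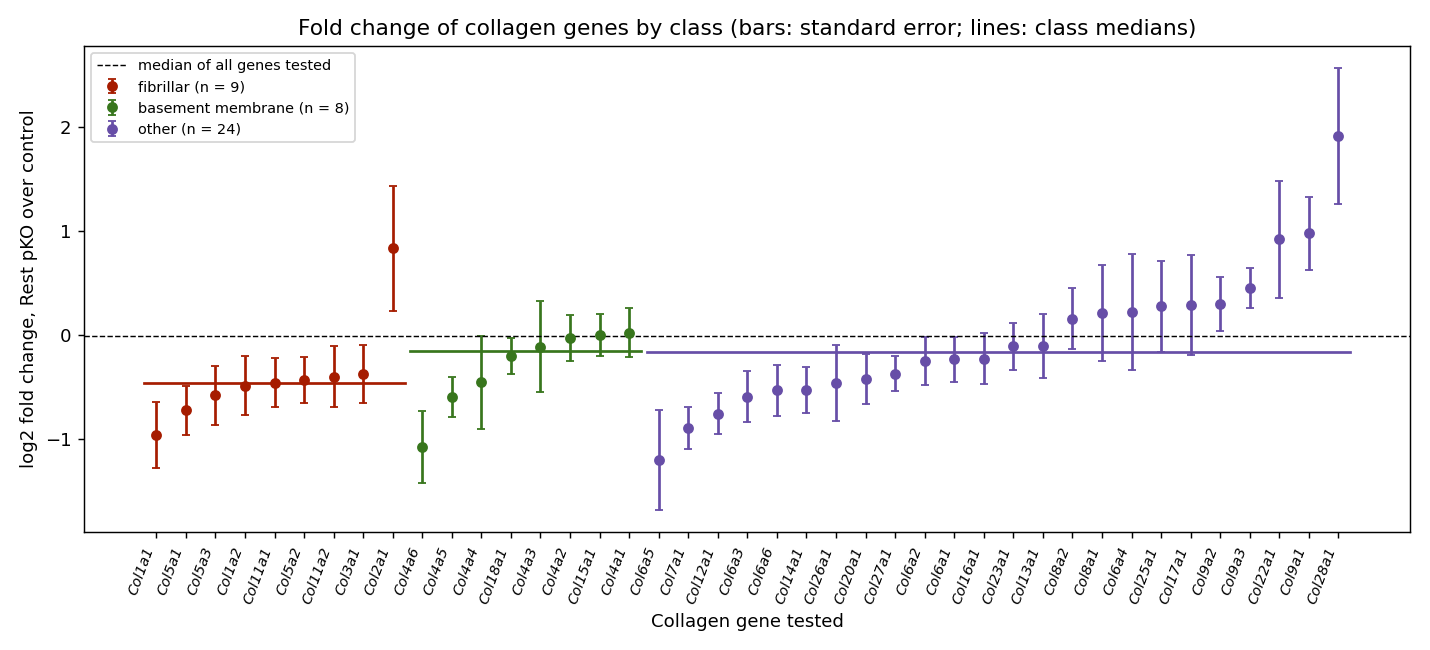
Fitted log2 fold change of each of the 41 collagen genes tested, *Rest* pKO over control, grouped by class. Points are fold changes, bars are standard errors, solid lines are class medians and the dashed line is the median of all genes tested. The fibrillar median lies at −0.46 and the basement membrane and other medians at −0.15 and −0.17, and the low-count gene *Col28a1* stands highest at 1.91.

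*Rest* pKO 1 was the lowest of the 4 libraries for 26 of the 41 collagens (63.4%), and for 23.1% of all genes tested. By class this held for 8 of 9 fibrillar, 5 of 8 basement membrane and 13 of 24 other collagens. Without *Rest* pKO 1 the median over the collagens was −0.16 and over the fibrillar genes −0.20, and without *Rest* pKO 2 these medians were −0.42 and −0.76. The fibrillar median, −0.46 with all 4 libraries, thus moved strongly in size with a single *Rest* pKO library, and its direction did not change.

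Levels between genes were compared as CPM per kilobase of transcript, averaged over the 2 libraries of a genotype. In controls *Col3a1*, the chain of type III collagen, stood highest at 650.2 CPM per kb, followed by the type I chains *Col1a2* (295) and *Col1a1* (246). The type VI chains *Col6a2* and *Col6a1* came next at 158 and 150.5 and the type IV chain *Col4a1* at 99.9. In *Rest* pKO the order was *Col3a1* (502), *Col1a2* (210.4), *Col6a2* (133), *Col6a1* (128), *Col1a1* (126) and *Col4a1* (102), so *Col1a1* stood beside the type VI chains. The mean over the 4 libraries was at least 1 CPM for 38 collagens. Of the remaining 6, *Col10a1*, *Col19a1*, *Col24a1*, *Col6a4* and *Col22a1* reached at most 1.16 CPM in any library, and the sixth, *Col28a1*, at most 1.69.

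Type I collagen, the main fibril of connective tissue, is assembled from the chains of *Col1a1* and *Col1a2*. *Col1a1*, on chromosome 11 from 94797538 to 94814356 (mm9, 52 exons), stood at 1514 and 1399 CPM in the controls against 518 and 976 CPM in *Rest* pKO. Both *Rest* pKO values were under both control values, *Rest* pKO 1 further than *Rest* pKO 2. Group means came to 1456 ± 81.2 and 747 ± 324 CPM (SD, n = 2 per genotype here and below), a log2 fold change of −0.96 ± 0.31 (SE, with an adjusted p of 0.480 in edgeR and 0.0644 in DESeq2). *Col1a2*, on chromosome 6 from 4454814 to 4491543, stood at 1659 and 1494 CPM in the controls against 841 and 1409 CPM in *Rest* pKO. Its groups were apart by less, since *Rest* pKO 2 lay close to control 2, and its log2 fold change was −0.49 ± 0.28 (SE, adjusted p = 0.644 in edgeR). Without *Rest* pKO 1 the values were −0.57 for *Col1a1* and −0.16 for *Col1a2*.

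Type III collagen forms mixed fibrils with type I and is a trimer of the *Col3a1* chain alone. *Col3a1* stood at 3791 and 3444 CPM in the controls against 2136 and 3445 CPM in *Rest* pKO. *Rest* pKO 2 was level with control 2, so the groups overlapped, and the log2 fold change was −0.37 ± 0.28 (SE, adjusted p = 0.692 in edgeR). Leaving out *Rest* pKO 1 gave −0.07 and leaving out *Rest* pKO 2 gave −0.76.

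Type V collagen starts and limits the growth of type I fibrils, and its chains come from *Col5a1*, *Col5a2* and *Col5a3*. *Col5a1*, on chromosome 2 from 27741945 to 27895034, stood at 542 and 533 CPM in the controls against 266 and 384 CPM in *Rest* pKO. The controls were nearly equal and both *Rest* pKO libraries lay well below them, with a log2 fold change of −0.72 ± 0.23 (SE, with an adjusted p of 0.472 in edgeR and 0.152 in DESeq2). *Col5a2* stood at 414 and 380 CPM in the controls against 246 and 342 CPM in *Rest* pKO (fitted log2 fold change −0.43 ± 0.22). *Col5a3* stood at 150 and 137 CPM in the controls against 67.7 and 124 CPM in *Rest* pKO (−0.58 ± 0.28). For all 3 chains both *Rest* pKO values were under both control values, as for 21.2% of all genes tested. *Rest* pKO 1 was the lower of the *Rest* pKO libraries for each.

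Type XI collagen is the counterpart of type V in cartilage and other tissues. Its chains were low here, *Col11a1* at 9.17 and 10.4 CPM in controls and 6.82 and 7.47 CPM in *Rest* pKO, and *Col11a2* at 8.81 and 7.01 CPM against 4.82 and 7.15 CPM. The groups were apart for *Col11a1* (log2 fold change −0.46 ± 0.23) and overlapped for *Col11a2* (−0.40 ± 0.29). *Col2a1*, the chain of cartilage fibrils, was the only fibrillar gene above 0, at 0.83 ± 0.60 (SE), from 1.67 and 0.61 CPM in controls and 2.74 and 1.28 CPM in *Rest* pKO. These are 28, 12, 59 and 28 counts, and the groups overlapped. The cartilage markers *Acan*, *Hapln1* and *Chad* were tested and summed with the untested ones to between 3.01 and 4.11 CPM in every library.

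Basement membrane collagens held an abundant pair near 0 and a rarer pair well below it. The most abundant pair, *Col4a1* and *Col4a2*, encodes the chains of the type IV network found in nearly all basement membranes. *Col4a1* stood at 568 and 755 CPM in the controls against 597 and 747 CPM in *Rest* pKO, and *Col4a2* at 313 and 389 CPM against 304 and 386 CPM. In both genotypes replicate 2 was the higher, and the log2 fold changes were 0.02 ± 0.24 (SE) for *Col4a1* and −0.02 ± 0.22 (SE) for *Col4a2*.

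*Col4a5* and *Col4a6* encode chains of a second type IV network, which occurs in certain basement membranes, among them those of smooth muscle and some epithelia. *Col4a6* stood at 26.5 and 19.5 CPM in the controls against 7.05 and 14.7 CPM in *Rest* pKO, a log2 fold change of −1.08 ± 0.35 (SE, with an adjusted p of 0.466 in edgeR and 0.169 in DESeq2). *Col4a5* stood at 65.6 and 56.3 CPM in the controls against 36.2 and 44.7 CPM in *Rest* pKO, a log2 fold change of −0.59 ± 0.19 (SE, adjusted p = 0.476 in edgeR). Both genes were apart between genotypes and lowest in *Rest* pKO 1. The partners of *Col4a5* in another type IV trimer, *Col4a3* and *Col4a4*, were rare. They lay between 0.93 and 1.11 CPM and between 1.25 and 2.32 CPM, with overlapping groups.

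Types XV and XVIII carry sugar chains and lie at the outer face of basement membranes. *Col15a1* stood at 96.5 and 130 CPM in the controls against 110 and 116 CPM in *Rest* pKO, and the *Rest* pKO libraries lay between the controls. *Col18a1*, the source of the fragment endostatin, stood at 139.5 and 152 CPM in the controls against 125 and 129 CPM in *Rest* pKO, a log2 fold change of −0.20 ± 0.17 (SE) with groups apart.

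Type VI collagen makes beaded filaments from the chains of *Col6a1*, *Col6a2* and *Col6a3*, the last of which can be replaced by those of *Col6a4*, *Col6a5* or *Col6a6*. *Col6a1* stood at 644 and 590.1 CPM in the controls against 461 and 589.5 CPM in *Rest* pKO, and *Col6a2* at 653 and 599 CPM against 446 and 608 CPM. For both, *Rest* pKO 2 was close to control 2, and the log2 fold changes were −0.23 ± 0.22 (SE) and −0.25 ± 0.23 (SE). *Col6a3* stood at 444 and 453 CPM in the controls against 236 and 359 CPM in *Rest* pKO, a log2 fold change of −0.59 ± 0.24 (SE, adjusted p = 0.543 in edgeR), with both *Rest* pKO libraries below both controls. *Col6a5* gave the lowest value of any collagen tested, −1.20 ± 0.48 (SE, adjusted p = 0.537 in edgeR), from 20.8 and 13.5 CPM in controls and 3.66 and 11.2 CPM in *Rest* pKO. The *Rest* pKO libraries of *Col6a5* differed widely, and its value was −0.61 without *Rest* pKO 1 and −2.22 without *Rest* pKO 2. *Col6a6* stood at 123 and 89.7 CPM in the controls against 60.3 and 86.7 CPM in *Rest* pKO (−0.53 ± 0.24).

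Type VII collagen forms the anchoring fibrils that tie basement membranes to the tissue beneath. *Col7a1*, on chromosome 9 from 108855631 to 108886920 with 116 exons, had the smallest p of the collagens. It stood at 44.4 and 59.2 CPM in the controls against 27.3 and 28.6 CPM in *Rest* pKO. Here the 2 *Rest* pKO libraries were close to each other and the controls were further apart. The log2 fold change was −0.89 ± 0.20 (SE, with an adjusted p of 0.372 in edgeR and 0.0544 in DESeq2), and it was −0.85 without *Rest* pKO 1 and −0.92 without *Rest* pKO 2.

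Fibril-associated collagens bind the surface of fibrils and carry interrupted helices. *Col12a1*, on chromosome 9 from 79446798 to 79566638, stood at 282 and 236 CPM in the controls against 140.3 and 166 CPM in *Rest* pKO, a log2 fold change of −0.76 ± 0.20 (SE, with an adjusted p of 0.424 in edgeR and 0.0769 in DESeq2). *Col14a1* stood at 307 and 312 CPM in the controls against 177 and 251 CPM in *Rest* pKO, a log2 fold change of −0.53 ± 0.22 (SE, adjusted p = 0.551 in edgeR). The groups of both genes were apart. *Col16a1* stood at 61.4 and 72.5 CPM in the controls against 44.3 and 70.3 CPM in *Rest* pKO (−0.23 ± 0.25) and its groups overlapped. *Col20a1*, a rarer relative, stood at 16.8 and 13.0 CPM in the controls against 9.88 and 12.3 CPM in *Rest* pKO (−0.42 ± 0.24).

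Type IX collagen, which coats cartilage fibrils and is also made outside cartilage, lay on the other side. *Col9a1* stood at 2.08 and 1.51 CPM in the controls against 3.71 and 3.37 CPM in *Rest* pKO, a log2 fold change of 0.98 ± 0.35 (SE, adjusted p = 0.496 in edgeR) on 35, 30, 80 and 74 counts. *Col9a3* stood at 14.3 and 17.7 CPM in the controls against 22.5 and 21.4 CPM in *Rest* pKO (0.45 ± 0.20, adjusted p = 0.566 in edgeR), and *Col9a2* averaged 6.61 ± 0.425 and 8.15 ± 1.62 CPM (0.30 ± 0.26). All 3 type IX chains had both *Rest* pKO values above both control values, as had 21.5% of all genes tested. For *Col9a2* the groups barely parted, at 7.001 CPM in *Rest* pKO 1 against 6.905 CPM in control 1. Its log2 fold change was 0.09 without *Rest* pKO 2. Exons of *Col9a3* share 234 bp with those of *Tcfl5* on the opposite strand, and without a stated strand setting the reads of the 2 genes cannot be told apart there.

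*Col28a1*, a rare collagen known from Schwann cells, was the other gene above 0 at an unadjusted p under 0.05, and since its mean was under 1 CPM it is described singly only after its values were seen. It had 11 and 3 counts in controls and 28 and 37 counts in *Rest* pKO (log2 fold change 1.91 ± 0.66, adjusted p = 0.494 in edgeR). Markers of Schwann cells moved with it, since all 6 tested markers had fold changes above 0 and their sum was 72.9 and 76.4 CPM in controls and 90.1 and 93.9 CPM in *Rest* pKO. Their part in the result was not tested.

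Among the remaining other collagens, *Col27a1*, a fibril-forming chain described late, stood at 57.7 and 58.3 CPM in the controls against 44.6 and 45.1 CPM in *Rest* pKO (fitted log2 fold change −0.37 ± 0.17). Its replicates were nearly equal in both genotypes and its groups were apart. The short-chain collagens *Col8a1* and *Col8a2*, found around vessels, lay between 1.55 and 3.73 CPM and between 8.2 and 13.8 CPM over the 4 libraries, with overlapping groups. The 4 membrane-spanning collagens, *Col13a1*, *Col17a1*, *Col23a1* and *Col25a1*, summed to between 16.1 and 16.7 CPM in every library, and the groups overlapped for each. *Col26a1* lay at 3.82 ± 1.37 and 2.78 ± 0.457 CPM and overlapped as well.

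Sequences upstream of the start were read for *Col1a2* as a type I chain, for *Col7a1* with the smallest p, for *Col6a5* with the lowest fold change and for the head-to-head pair *Col4a5* and *Col4a6*. They are shown so that the letters before the start can be seen beside the values, and the data hold no measurement of promoter activity. RefSeq promoters on GRCm38.p6 were given for 35 of the 44 genes in 38 entries, and *Col1a1* had no entry. The bases just before the start are printed 5′ to 3′ on the strand of the gene, and capitals mark motifs on either strand. The motifs searched were the CCAAT box, the GC box spelled GGGCGG and the TATA box spelled TATAAA. The element RE1, to which REST binds, was searched by its left part, spelled TCAGCAC, and by its right part, which is spelled GGACAGC. The regions are chr6:4505368-4505617 (plus strand, *Col1a2*), chr9:108953336-108953585 (plus, *Col7a1*), chrX:141475169-141475418 (plus, *Col4a5*), chrX:141474077-141474326 (minus, *Col4a6*) and chr9:105960644-105960893 (minus, *Col6a5*).
Col1a2: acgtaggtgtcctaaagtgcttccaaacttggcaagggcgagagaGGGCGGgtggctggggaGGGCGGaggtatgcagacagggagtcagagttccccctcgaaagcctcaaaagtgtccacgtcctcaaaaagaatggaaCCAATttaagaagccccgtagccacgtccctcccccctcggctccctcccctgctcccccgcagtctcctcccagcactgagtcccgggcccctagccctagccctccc
Col7a1: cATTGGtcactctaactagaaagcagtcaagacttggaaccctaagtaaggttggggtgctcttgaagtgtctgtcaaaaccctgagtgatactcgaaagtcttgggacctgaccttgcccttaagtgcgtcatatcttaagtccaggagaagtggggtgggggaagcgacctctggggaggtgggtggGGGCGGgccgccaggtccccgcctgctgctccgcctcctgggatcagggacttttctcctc
Col4a5: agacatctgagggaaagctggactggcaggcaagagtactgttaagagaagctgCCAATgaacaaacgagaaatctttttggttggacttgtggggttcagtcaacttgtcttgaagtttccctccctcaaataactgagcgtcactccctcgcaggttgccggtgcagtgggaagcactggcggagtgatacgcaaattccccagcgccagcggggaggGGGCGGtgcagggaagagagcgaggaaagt
Col4a6: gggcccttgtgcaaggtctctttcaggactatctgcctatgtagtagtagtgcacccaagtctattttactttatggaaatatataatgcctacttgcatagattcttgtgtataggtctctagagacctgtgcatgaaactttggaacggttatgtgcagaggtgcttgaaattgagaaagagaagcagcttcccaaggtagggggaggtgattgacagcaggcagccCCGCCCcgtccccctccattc
Col6a5: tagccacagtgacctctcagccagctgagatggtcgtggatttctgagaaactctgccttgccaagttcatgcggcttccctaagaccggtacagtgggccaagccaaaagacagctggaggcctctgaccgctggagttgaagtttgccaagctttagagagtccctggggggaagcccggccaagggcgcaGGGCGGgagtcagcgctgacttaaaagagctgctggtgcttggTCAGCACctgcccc

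With the base before the start as −1, the CCAAT box of *Col1a2* began at −109, that of *Col4a5* at −196 and that of *Col7a1* near the upstream end. The GC box was found in all 5 sequences printed. *Col3a1*, the most abundant collagen, was also read and held the letters of the TATA box at −117 but none of the other motifs. The left part of RE1 was in *Col6a5* alone, at −14, and the right part was in 0 of the 5. Over all 38 collagen entries, the CCAAT box was in 34.2% and the TATA box in 13.2%, beside 33.8% and 12.4% of the 32851 mouse promoters of the same length. The GC box was in 57.9% of the collagen entries and in 32.7% of all. The left part of RE1 was in 2 collagen entries, *Col5a3* and *Col6a5* (5.26%, against 4.23% of all), and the right part in 1, *Col9a1* (2.63%, against 5.28%). A match of letters is a description and does not show a bound site.

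The summed levels of the classes gave the same order as the medians. Fibrillar transcripts summed to 8088 and 7405 CPM in controls and to 4090 and 6697 CPM in *Rest* pKO, means of 7747 ± 483 and 5393 ± 1843 CPM and a ratio of 0.696. Basement membrane collagens summed to 1211 and 1504 CPM in controls and to 1182 and 1439 CPM in *Rest* pKO, a ratio of 0.966. The other collagens summed to 2709 and 2563 CPM in controls and to 1722 and 2301 CPM in *Rest* pKO, a ratio of 0.763. Fibrillar and other sums were apart between genotypes and the basement membrane sums overlapped. Collagen reads took 1.19% and 1.22% of all counts in controls and 0.727% and 0.949% in *Rest* pKO.

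Within each library, the ratio of summed fibrillar to summed basement membrane CPM was 6.68 and 4.92 in controls and 3.46 and 4.65 in *Rest* pKO. These ratios do not depend on library size, and they were lower in both *Rest* pKO libraries, by little between control 2 and *Rest* pKO 2. The difference between the classes was not tested.

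**Figure D2:**
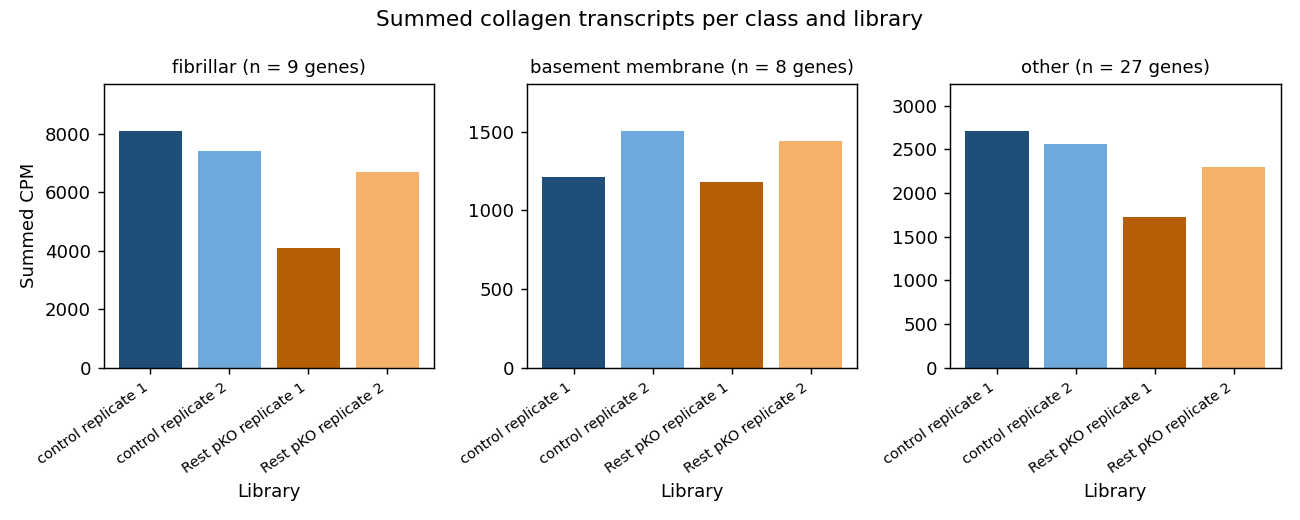
Summed CPM of fibrillar, basement membrane and other collagens in each of the 4 libraries. Each bar is 1 library and starts at 0, and the vertical scale differs between the 3 panels. Fibrillar sums run from 8088 in control 1 to 4090 in *Rest* pKO 1, while basement membrane sums of the 2 genotypes overlap.

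Ratios between chains of the same collagen were taken within each library, where scaling cancels. *Col1a1* per *Col1a2* was 0.913 and 0.936 in controls and 0.616 and 0.693 in *Rest* pKO, as a ratio of counts, so that the replicates lay close and the genotypes were apart. *Col5a1* per *Col5a2* was 1.31 and 1.40 in controls and 1.08 and 1.13 in *Rest* pKO, and *Col6a3* per *Col6a1* was 0.689 and 0.768 against 0.513 and 0.608. A trend of fold change with exon length does not cancel here, and *Col6a3* has 11950 bp of exon against 4393 bp for *Col6a1*. Their log2 fold changes of −0.59 and −0.23 became −0.31 and −0.16 with the length trend removed. For *Col1a1* and *Col1a2*, −0.96 and −0.49 became −0.80 and −0.20. The length removed counts every annotated exon, 6563 bp for *Col1a1* and 12145 bp for *Col1a2*. The transcripts with the longest coding sequence have 5930 and 5347 bp, so by that measure *Col1a2* is the shorter. The corrected gap between these 2 genes thus depends on the measure of length. In the second type IV network, *Col4a6* per *Col4a5* was 0.404 and 0.346 in controls and 0.195 and 0.328 in *Rest* pKO. The third type V chain gave overlapping groups, with *Col5a3* per *Col5a2* at 0.362 and 0.360 in controls and 0.275 and 0.364 in *Rest* pKO. The main type IV pair and the main type VI pair overlapped between genotypes as well. *Col4a1* per *Col4a2* lay between 1.81 and 1.96, and *Col6a1* per *Col6a2* between 0.970 and 1.03.

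**Figure D3:**
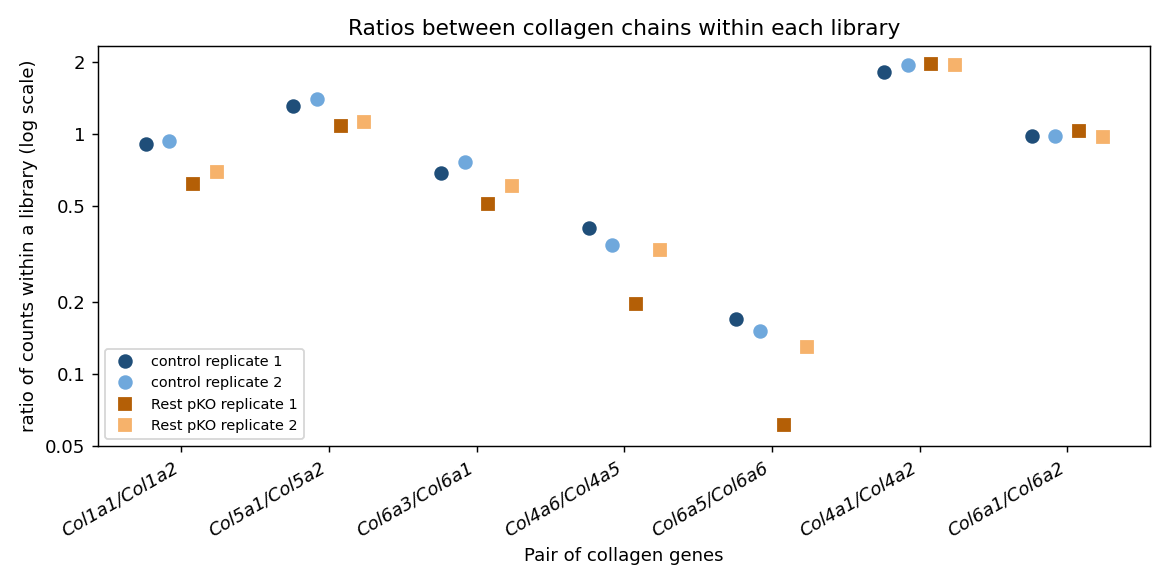
Ratio of counts between 2 collagen chains within each library, on a log scale. Each point is 1 library. *Col1a1* per *Col1a2* and *Col5a1* per *Col5a2* lie lower in both *Rest* pKO libraries, while *Col4a1* per *Col4a2* and *Col6a1* per *Col6a2* overlap between genotypes.

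Several collagen genes sit side by side in the genome, and positions are given on mm9. *Col3a1* and *Col5a2* lie on chromosome 1 with a gap of 24614 bp and had log2 fold changes of −0.37 and −0.43. *Col4a1* and *Col4a2* lie on chromosome 8 in head-to-head orientation and overlap by 22 bp, at 0.02 and −0.02. *Col4a6* (X:137599946-137908619) and *Col4a5* (X:137909928-138123778) are head to head with 1308 bp between them, at −1.08 and −0.59. *Col6a6*, *Col6a5* and *Col6a4* follow each other on chromosome 9 with gaps of 27984 and 28810 bp and did not match, at −0.53, −1.20 and 0.22.

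Log2 fold changes in these libraries declined with exon length over all genes. The Spearman correlation across 13312 genes was −0.296, as a description, since genes share the libraries and are not independent replicates. The tested collagens had a median exon length of 6920 bp, against 3716 bp for all tested genes, and 16 and 12 of the 40 with a length fell in the top and next length decile of genes. The medians of all genes in those deciles were −0.24 and −0.14. After the length trend of each library was removed, *Col1a1* stood at −0.80, *Col4a6* at −0.87, *Col7a1* at −0.65 and *Col3a1* at −0.16, and 0 collagens passed edgeR's test, with the lowest adjusted p at 0.48 for *Col7a1*. Length moved with the result in this way, and what lay behind the length trend was not tested.

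**Figure D4:**
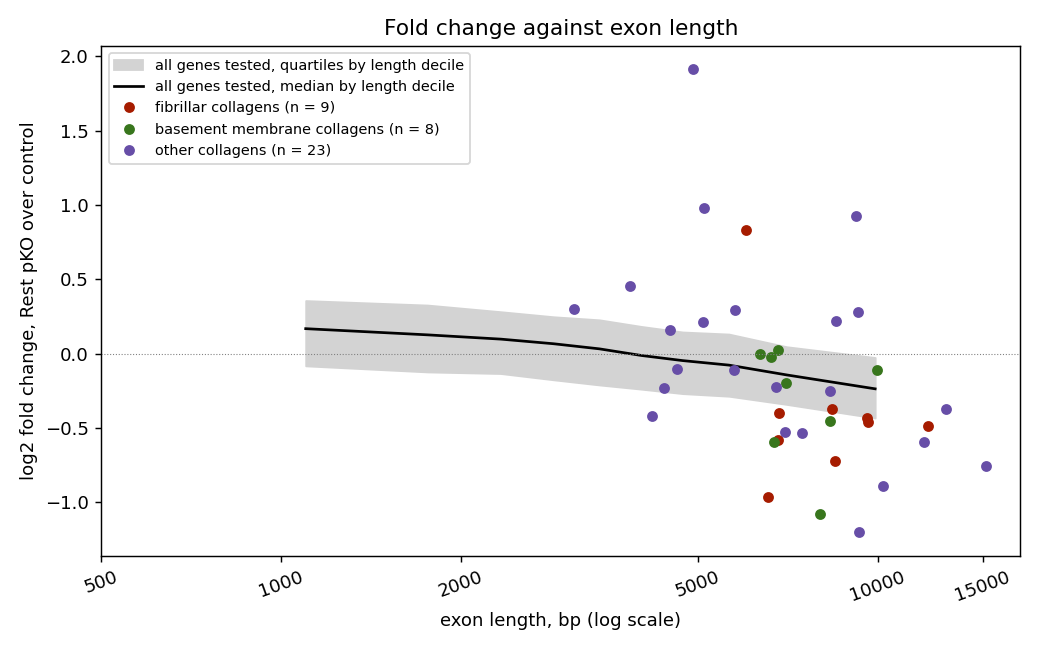
Fitted log2 fold change against exon length in bp (log scale) for the 40 tested collagens with a length, colored by class. The black line and grey band are the median and quartiles of all tested genes in each length decile. The line declines from 0.17 in the shortest decile to −0.24 in the longest, and most fibrillar collagens lie below it.

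Genes that make, cross-link, bind or sense collagen were read from 7 lists. Collagen folding and modification, which takes place in the endoplasmic reticulum, had 11 of 19 tested members below 0 and a median of −0.07. *P4hb*, a subunit of the prolyl hydroxylase, was at 2427 ± 202 and 2457 ± 210 CPM, and *Plod2*, a lysyl hydroxylase, had a log2 fold change of −0.60 ± 0.20 (SE, adjusted p = 0.494 in edgeR). *P4hb* and several chaperones of this list are also made in acinar cells, which secrete digestive enzymes. Procollagen cleavage and cross-linking had 10 of 12 below 0 and a median of −0.40. *Lox*, which cross-links fibrils, stood at 170 and 132 CPM in the controls against 99.9 and 73.2 CPM in *Rest* pKO (−0.80 ± 0.23, adjusted p = 0.433 in edgeR). *Adamts2*, which trims the amino end of procollagen, lay at −0.62 ± 0.28 (SE).

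Fibril-binding proteoglycans and matricellular proteins had 12 of 15 members below 0 and a median of −0.48, close to the −0.46 of fibrillar collagens. With the length trend removed these medians were further apart, at −0.42 and −0.23. *Fn1*, the fibronectin on which collagen fibrils assemble, stood at 552 and 397 CPM in the controls against 160 and 329 CPM in *Rest* pKO (−0.96 ± 0.35). *Tnxb*, a tenascin of fibrils, stood at 128 and 132 CPM in the controls against 46.7 and 83.2 CPM in *Rest* pKO (−1.003 ± 0.27), and it was the only member called by DESeq2 (adjusted p = 0.0447, and 0.424 from edgeR). *Sparc*, a collagen-binding protein, was at −0.12 ± 0.24 (SE).

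Basement membrane partners had 10 of 15 below 0 and a median of −0.19, or −0.0029 with the length trend removed. *Hspg2*, the proteoglycan perlecan, stood at 274 and 331 CPM in the controls against 137 and 173 CPM in *Rest* pKO (−0.97 ± 0.21), and DESeq2 called it (adjusted p = 0.00749) while edgeR did not (adjusted p = 0.357). *Lamb1*, a laminin chain of most basement membranes, was at 0.04 ± 0.18 (SE), near *Col4a1* and *Col4a2*. Collagen breakdown and its inhibitors had 10 of 13 below 0 with a median of −0.14. Collagen receptors had 7 of 9 below 0 with a median of −0.41, with *Ddr2*, a receptor kinase for fibrillar collagen, at −0.54 ± 0.18 (SE). Signaling by TGF-beta, an inducer of collagen genes, had 10 of 13 below 0 with a median of −0.18, and *Tgfb1* lay at −0.77 ± 0.26 (SE). In these 7 lists edgeR called 0 genes. At an unadjusted p under 0.05, where 5.61% of all genes lay lower, the lists held 1 of 19, 2 of 12, 6 of 15, 2 of 15, 3 of 13, 1 of 9 and 1 of 13 lower members, in the order given here, and 0 higher ones. Of the 3 in the breakdown list, the collagenase *Mmp8* (1.43 and 30.8 CPM in controls against 2.13 and 1.09 CPM) and the gelatinase *Mmp9* (0.83 and 17.9 CPM against 0.56 and 0.36 CPM) were high in control 2 alone.

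Markers of the cells that could supply collagen were read beside these values. The 14 mesenchyme markers had 11 members below 0 and a median of −0.21, and summed to 895 and 878 CPM in controls and to 718 and 917 CPM in *Rest* pKO, with 0 of them uncounted. Summed fibrillar CPM per summed mesenchyme CPM was 9.04 and 8.43 in controls and 5.70 and 7.30 in *Rest* pKO. Most of the mesenchyme sum is *Vim*, which other cells make as well, at 644 and 613 CPM in controls and 492 and 688 CPM in *Rest* pKO (−0.09 ± 0.23). The rarer mesenchymal factors *Osr1*, *Barx1* and *Prrx1* lay at −0.92 ± 0.31, −0.73 ± 0.26 and −0.53 ± 0.25, at or below the fibrillar median of −0.46. Other members of the list did not, with *Pdgfra* at −0.15 ± 0.17 and *Thy1* at 0.47 ± 0.19. In all, 3 of the 14 lay above 0. Mesothelium, the outer lining of the organ, had 6 of 6 tested markers below 0 and a median of −0.75. Its sums were 460 and 368 CPM in controls against 202 and 318 CPM in *Rest* pKO. These sums include *Krt19*, which is also in the duct list and whose groups overlapped. The mesothelial marker *Wt1* was called by DESeq2 (−1.07, adjusted p = 0.0153). For all 6 of these markers *Rest* pKO 1 was the lowest library, as it was for most fibrillar collagens. The same held for 9 of 10 macrophage and leukocyte markers, 9 of 12 cleavage and cross-linking genes and 10 of 15 fibril-binding genes. It held for 6 of 14 mesenchyme markers, 3 of 13 TGF-beta genes and 0 of 10 endothelium markers. The share over all genes tested was 23.1%. Endothelium had 10 of 10 above 0 and a median of 0.40, with sums of 454 and 600.2 CPM against 680 and 720 CPM, and smooth muscle and pericytes had 5 of 8 above 0. Macrophage and leukocyte markers had 8 of 10 below 0 and 2 above (median −0.18). *C1qa* was among the 2 above. The sums of these markers overlapped, at 422.5 and 354 CPM in controls against 325 and 392 CPM in *Rest* pKO. Without *Rest* pKO 1 their median was 0.11. DESeq2 called 2 of the 10 lower, where it called 0.533% of all genes lower. These were *Itgam* (−1.76 ± 0.31, adjusted p = 0.00087) and *Ptprc* (−1.55 ± 0.28, adjusted p = 0.0032). Acinar markers had 13 of 14 above 0 (median 0.18) and endocrine markers 12 of 12 (0.72). Duct markers had a median of −0.02 and red cell markers one of −3.34, with a red cell sum of 154 CPM in control 2 and at most 35.9 CPM elsewhere. The part of these cell types in the collagen values was not tested.

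With the sex of the embryo as a further term, edgeR called 187 genes lower (1.29%) and 60 higher (0.412%), and 3 collagens were among those lower. *Col1a1* fell by 1.03 on the log2 scale (SE 0.25, adjusted p = 0.00613), *Col4a6* by 1.15 (SE 0.29, adjusted p = 0.00771) and *Col6a5* by 1.36 (SE 0.31, adjusted p = 0.0021). This fit sets control 1 against *Rest* pKO 2 and control 2 against *Rest* pKO 1 and leaves 1 residual degree of freedom. Over all genes, libraries of the same sex barely deviated together (correlation of −0.0478). The 2 pairs also differed in size. *Col1a1* went from 1514 to 976 CPM in the female pair and from 1399 to 518 CPM in the male pair. For *Col6a5* these were 20.8 to 11.2 CPM and 13.5 to 3.66 CPM. For these 3 genes both *Rest* pKO values were under both control values, and *Rest* pKO 1 was the lowest library for each. *Col7a1* had an adjusted p of 0.0695 in that fit. Without control 2, edgeR called 73 genes lower (0.49%) and 1 collagen, *Col6a5* (−1.49, adjusted p = 0.0178). The same 3 genes were not called with genotype as the only term, where their adjusted p-values were 0.480, 0.466 and 0.537 from edgeR.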

How the data were processed

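Whole E18.5 pancreas of 2 control and 2 *Rest* pKO samples was profiled by RNA-seq, and genotype and replicate number were taken from the labels. The deposited table holds raw counts for each gene in whole numbers. To make the counts, the authors aligned reads with STAR to a genome the methods call NCBI36/mm9 and assigned uniquely mapped reads to UCSC mm9 genes with featureCounts, version 1.5 per the submitters' processing notes, and they tested genotype with DESeq2. Whether strand was used, and whether pairs or reads were counted, is not given in the sources used here.

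Collagen genes were selected by symbol. All genes were tested with edgeR 4.0.16 (filterByExpr, TMM, glmQLFit, glmQLFTest) under R 4.3.3, the model holding genotype alone, and Benjamini-Hochberg adjustment covered all 14550 tested genes (threshold 0.05). The biological coefficient of variation was 0.211. CPM use TMM-scaled library sizes (factors 0.992, 1.06, 1.04 and 0.910), and errors are SD over 2 libraries. Log2 fold changes are given as *Rest* pKO relative to control, with a standard error (SE) derived from the quasi-likelihood F. Positions and exon lengths came from GENCODE on NCBI build 37 (mm9), which placed 43 of the 44 genes by symbol. Exon length counts every annotated exon of a gene and can exceed that of its transcripts. Levels per kilobase used the transcript with the longest coding sequence. Promoters are RefSeq sequences on GRCm38.p6, and nothing was converted between builds. Exons of *Col4a1* and *Col4a2* share 22 bp, of *Col7a1* and *Mir711* 36 bp, and of *Col10a1* and *Nt5dc1* 18 bp.

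Alternatives were DESeq2 1.42.0, limma-voom (limma 3.58.1), other scaling and filters, a replicate block, sex as a term, removal of the length trend, and leaving out each library. The procedure was tested on simulated data. Log2 fold changes of −1 and −2 were called in 33.6% and 87.7% of the genes given them. Those of 1 and 2 were called in 47.3% and 92%, and unchanged genes in 0.0563%. Most changes of −1 were thus missed. The collagen genes, their classes and the companion lists were chosen with earlier results of these data known. Any collagen could be named, in full at a mean of at least 1 CPM, and from each companion list up to 4 members with the smallest p and 2 with the highest level, of which a few are printed. The value of 1 companion gene is not reported here, and list counts include it.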

Additional observations from a re-analysis of the deposited data

How the results depend on the processing

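No collagen was called with DESeq2's size factors, other TMM factors, either filter, DESeq2, limma-voom, the replicate block or the length correction. DESeq2 called 76 genes lower and 26 higher in the whole table, and the sex term 187 and 60, with 3 collagens. Removing the length trend moved the median to −0.0764 over collagens, 0.0433 over basement membrane and −0.0292 over other collagens. Leaving out single libraries gave 0 to 455 genes called lower, 1 to 59 called higher and 0 to 1 collagens called. The medians then ran from −0.42 to −0.16 over collagens, from −0.76 to −0.20 over fibrillar, from −0.23 to −0.01001 over basement membrane and from −0.30 to −0.0653 over other collagens. The cause of these moves was not tested. Where an arm was left with 1 sample, that sample was assumed to vary like the other group.

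No label says that the replicate numbers pair the samples, and same-numbered replicates barely deviated together (correlation of 0.0478). With the replicate block edgeR called 4 genes lower, 0 higher and 0 collagens, and the collagen median was −0.26.

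Some single genes changed sign. *Col15a1* was at 0.000519 with DESeq2's size factors, 0.00687 with no filter, 0.000463 with DESeq2, 0.0136 with limma-voom and with the replicate block, 0.0137 with the sex term, and 0.14 with the length trend removed. The last setting also put *Col23a1* at 0.0138, *Col4a2* at 0.13 and *Col4a3* at 0.12. With single libraries left out, *Col15a1* ran from −0.20 to 0.23, *Col4a1* from −0.17 to 0.24, *Col4a2* from −0.20 to 0.14, *Col4a3* from −0.23 to 0.00636, *Col4a4* from −0.83 to 0.0653, *Col8a1* from −0.28 to 0.99, *Col8a2* from −0.17 to 0.58, *Col13a1* from −0.31 to 0.0902, *Col16a1* from −0.59 to 0.0725, *Col17a1* from −0.19 to 0.65 and *Col25a1* from −0.18 to 0.63. Summing CPM per kilobase in place of CPM kept the direction of each class sum.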
